A study of Mus musculus with 24 samples.

Results

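The genes described here encode the enzymes and transporters that carry glucose through glycolysis to pyruvate and lactate, with the kinases that regulate the oxidation of pyruvate in mitochondria and the glycerol phosphate shuttle. All 35 were found by symbol on chromosomes 1 to 19 or X, among 45594 genes in the deposited table, and all 35 passed the filter on low counts. They were measured by directional RNA sequencing of polyadenylated RNA from whole retinas of C57/Bl6N mice, and the labels name no treatment or mutation in any group. The groups are the mature ages P14, P21 and P28 (postnatal days 14, 21 and 28; 6 libraries), the embryonic ages E11, E12, E14 and E16 (embryonic days 11, 12, 14 and 16; 8 libraries), and the ages between them, P0, P2, P4, P6 and P10, with 2 libraries at each age and 24 in all. Less RNA went into the libraries of E11 and E12 than into the others, per the labels' protocols. The labels do not say whether the libraries of an age came from separate animals, so p-values measure the spread between these libraries. The edgeR tests below use 1 coefficient per age, so their p-values and SEs rest on the spread between libraries of the same age. They do not cover differences between the ages within a group.

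Glycolysis splits glucose into pyruvate in a fixed sequence of steps, and most steps can be run by any of several paralogous enzymes whose kinetics, regulation and tissue distribution differ. The retina is known for turning much of its glucose into lactate even when oxygen is present, and photoreceptors are known as the main users of that glucose. Lactate leaves or enters cells through monocarboxylate transporters, several of which need the membrane protein basigin to reach the cell surface, and pyruvate dehydrogenase kinases hold back its oxidation in mitochondria by switching off the enzyme that converts it to acetyl-CoA.

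Library totals ran from 24567532 to 35898879 estimated counts. The 35 genes together took 0.556% and 0.578% of all counts in the P0 libraries, the lowest shares of any age, and 1.72% and 1.8% in the P21 libraries, the highest. The summed level of 6 rod markers ranged from 28900 to 80300 CPM (estimated counts scaled to library size and by the trimmed mean of M-values, TMM) in mature libraries and from 7 to 47.6 CPM in embryonic ones, where Nrl was at 0 in 2 libraries and Nr2e3 in 3. The 6 Müller glia markers were found in every library and summed to 2370 to 3500 CPM in mature and 567 to 784 CPM in embryonic libraries. The part of these cells in the changes below was not tested. In bulk tissue such as this, fewer cells of a type and less RNA per cell cannot be told apart. The E11 libraries stood apart from each other: 7 lens markers summed to 3210 CPM in replicate 1 and 22.5 CPM in replicate 2, and 9 red cell markers to 3680 and 6950 CPM. Lens markers were also high in replicate 2 of E12 (3080 CPM) and of E14 (2300 CPM). Scaling by library size alone shifted log2 changes of E16 vs E11 by 0.15 and those of each other comparison by less than 0.1, as computed from the scaling factors.

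Most members changed with age. In the test over all 12 ages 33 of 35 were called (edgeR quasi-likelihood F test, Benjamini-Hochberg adjusted p under 0.05 and at least a 2-fold range), where 77.3% of all 21858 genes tested were called. Pdk4 and Gpd1 were not called (adjusted p = 0.189 and 0.16 by the same test). In mature vs embryonic retina 15 of 35 members rose and 4 fell, against 27.9% and 20.8% of all genes, with a median log2 change of 0.54 over the members and 0.1 over all genes. The risers were Hk1, Hk2, Pfkm, Pfkp, Pfkfb2, Aldoa, Aldoc, Eno2, Slc2a3, Slc16a1, Slc16a7, Slc16a8, Bsg, Pdk2 and Pdk4. The members that fell were Pfkfb1, Slc2a1, Pdk1 and Gpd2. The highest age mean of 13 members stood at P21, that of 7 at E11, and no member peaked at P0, P2, P4 or P10. The share of all genes with a peak at each age was not counted. Some of the E11 peaks rest on unequal libraries, as for Pgk1 (681 ± 263 CPM, SD) and Ldhb (237 ± 91.1 CPM). Others do not, as for Eno1 (2980 ± 166 CPM).

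**Figure D1:**
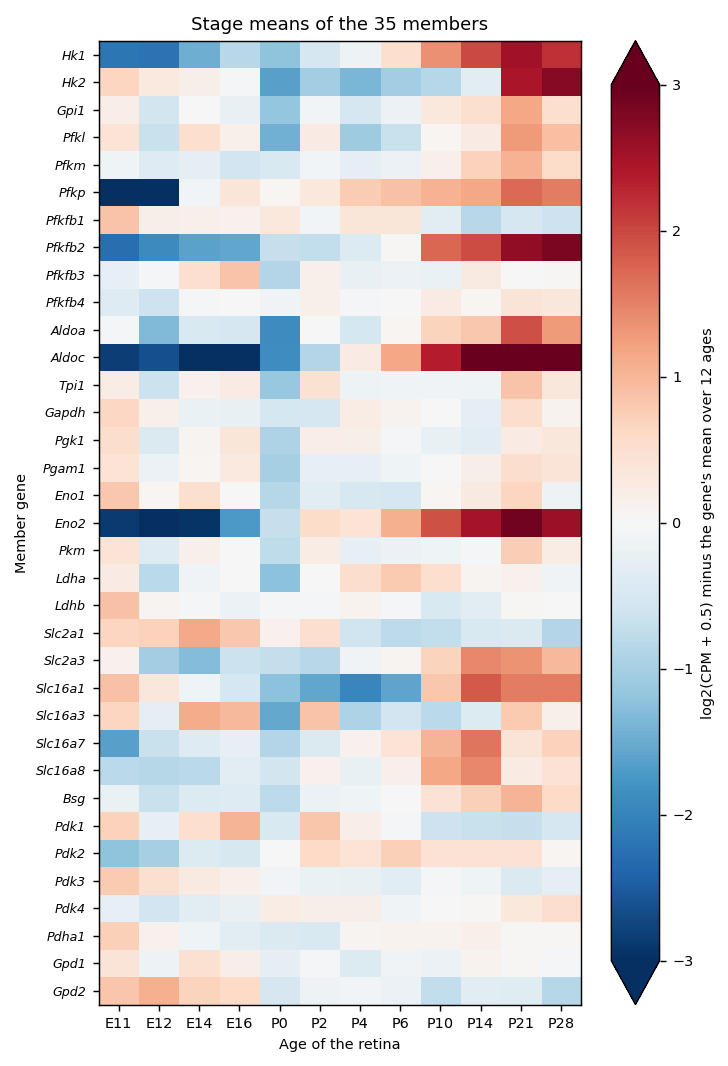
Mean level of each of the 35 members at 12 ages, as log2(CPM + 0.5) minus the gene's own mean over the ages (colour scale, cut at 3 in each direction). Aldoc, Eno2, Pfkfb2 and Hk1 go from blue before birth to red at P14 to P28, Hk2 turns red only at P21, and the column of P0 is blue for Pfkl, Aldoa, Tpi1, Pgk1, Pgam1 and Ldha.

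Glucose enters retinal cells through facilitative transporters. Slc2a1, which encodes the widespread transporter GLUT1, had a lowest, median and highest level of 130, 196 and 210 CPM in mature libraries, against 421, 447 and 613 CPM in embryonic ones. The groups did not overlap, and Slc2a1 fell by 1.41 on the log2 scale (SE 0.0761, adjusted p = 8.37e-12, edgeR quasi-likelihood). The step of Slc2a1 that was called between neighbouring ages came after birth, with 197 and 164 CPM at P4 against 448 and 340 CPM at P2 (log2 change -1.12, SE 0.137, adjusted p = 1.15e-05), a call lost without replicate 1 of P2 or replicate 2 of P4. Slc2a3, which encodes the neuronal transporter GLUT3, had 76.4, 108 and 117 CPM in mature libraries and 12.9, 21.8 and 103 CPM in embryonic ones. It rose by 1.86 (SE 0.242, adjusted p = 1.56e-06), and the ranges overlapped only through replicate 2 of E11, at 103 CPM where replicate 1 had 21 CPM. Per kilobase of the longest coding transcript, Slc2a3 averaged 27.3 CPM at P21 and 15.7 CPM at E11, and Slc2a1 averaged 62.0 CPM at P21 and 132.0 CPM at E11. Slc2a1 thus stayed the higher of these 2 transporters on this scale at each of the 12 ages, while the log2 ratio of Slc2a3 to Slc2a1 rose by 3.38 (-0.84 ± 0.08 in 6 mature and -4.22 ± 1.01 in 8 embryonic libraries, SD). Its exact two-sided permutation p was 0.000333, the smallest that 3003 arrangements allow, and 0.000833 after Benjamini-Hochberg adjustment over 15 ratios. These permutations treat the libraries of different ages in a group as exchangeable, and each library as a unit though 2 share each age. With ages as the units there would be fewer arrangements and a larger smallest p. The 15 ratios were chosen with earlier results of these data known, and the adjustment does not cover that choice.

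Hexokinases trap glucose by phosphorylating it, and the retina carried changing amounts of the 2 main forms. Hk1 (chromosome 10, 62268855 to 62379908, GRCm38), the form known from brain, had 578, 668 and 853 CPM in mature libraries, against 28.8, 41.1 and 86.5 CPM in embryonic ones. The groups were far apart, and Hk1 rose by 3.9 on the log2 scale (SE 0.0619, adjusted p = 5.24e-19), passing the test in each of the windows E16 vs E11 (1.36), P6 vs E16 (1.33) and P28 vs P6 (1.68). Hk2 (chromosome 6, 82725025 to 82774454), the form known from muscle and tumours and later from photoreceptors, behaved otherwise. It had 42.7, 276 and 422 CPM in mature libraries and 52.2, 64.2 and 114 CPM in embryonic ones, which overlap, and rose by 1.36 (SE 0.136, adjusted p = 4.82e-08). By age its libraries stood between 52.2 and 114 CPM from E11 to E16, between 15.4 and 44.4 CPM from P0 to P14, and between 239 and 422 CPM at P21 and P28. Hk2 fell at P0 to 15.4 and 19.3 CPM, against 52.2 and 54.6 CPM at E16 (log2 change -1.62, SE 0.265, adjusted p = 0.000363). It rose at P21 to 239 and 383 CPM, against 44.4 and 42.7 CPM at P14 (2.84, SE 0.269, adjusted p = 1.4e-06). The change between P14 and P21 was the largest of any member between neighbouring postnatal ages. Per kilobase, Hk2 stood above Hk1 at E11 and E12 and below it at each age from E14 on, with 11.3 CPM for Hk2 and 12.5 CPM for Hk1 at E14 and 66.7 and 156.0 CPM at P28. The log2 ratio of Hk2 to Hk1 was -2.02 ± 1.36 in mature and 0.52 ± 0.86 in embryonic libraries (SD; exact permutation p = 0.000666, adjusted p = 0.00143), and within the mature group it was -0.68 and -1.07 at P28, against -3.69 and -3.74 at P14. Gpi1, the isomerase of the next step, had 617 to 1050 CPM in mature and 308 to 608 CPM in embryonic libraries and did not reach a 2-fold change (0.85, SE 0.0592).

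Phosphofructokinase commits sugar to glycolysis, and it is assembled from liver (Pfkl), muscle (Pfkm) and platelet (Pfkp) subunits. Pfkp (chromosome 13, 6579768 to 6648777) was at 9.66 and 10.9 CPM at E11, 25.6 and 14.4 CPM at E12, 210 and 191 CPM at E14, and 675 and 710 CPM at P21. Its steepest step was E14 vs E12 (3.33, SE 0.194, adjusted p = 2.68e-09), so the platelet subunit left its low state before birth and then climbed slowly. In mature vs embryonic retina Pfkp rose by 3.35 (SE 0.0994, adjusted p = 1.71e-15) and Pfkm by 1.11 (SE 0.0515). Pfkl had 174 to 457 CPM in mature and 97.5 to 277 CPM in embryonic libraries, which overlap, with a change of 0.7 that missed the 2-fold threshold. The level of Pfkl swung around birth, with 66.4 and 59.8 CPM at P0, 208 and 203 CPM at P2 and 78.7 and 86.5 CPM at P4. Per kilobase, Pfkp was the highest of the 3 subunits at P28 (150.0 CPM, with 86.8 for Pfkl and 43.3 for Pfkm), and Pfkl was the highest at E11 (62.6 CPM, with 27.1 for Pfkm and 2.48 for Pfkp). The ratio of Pfkp to Pfkm differed by 2.24 between mature and embryonic libraries and did not pass (exact permutation p = 0.0336, adjusted p = 0.0504), with E11 and E12 far below E14 and E16.

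The Pfkfb enzymes set the level of fructose 2,6-bisphosphate, the strongest known activator of phosphofructokinase. Pfkfb2 (chromosome 1, 130689182 to 130729253), known as the heart form, had 335, 552 and 619 CPM in mature libraries, against 14.7, 25.6 and 32.3 CPM in embryonic ones. It rose by 4.32 (SE 0.0765, adjusted p = 1.83e-18), with its steepest step at P10 (300 and 278 CPM) against P6 (92.6 and 87.6 CPM; 1.68, SE 0.133, adjusted p = 1.17e-07). Pfkfb3, the form known from proliferating cells, had a median of 41 and a highest level of 50.7 CPM in mature libraries, with 46.6 and 75.7 CPM in embryonic ones, and was not called (-0.16, SE 0.0916, adjusted p = 0.121). Pfkfb4 had 13.6 to 20.1 CPM in mature and 8.18 to 15.4 CPM in embryonic libraries (0.54, SE 0.083). Pfkfb1, the liver form, was at 1.06 to 2.1 CPM in mature libraries, against 2.97 to 6.08 CPM in embryonic ones, and fell by 1.14 on the log2 scale (SE 0.152); with E11 left out its change was -0.95. The ratio of Pfkfb2 to Pfkfb3 rose by 4.46 (3.54 ± 0.56 in mature, -0.92 ± 0.37 in embryonic libraries; exact permutation p = 0.000333, adjusted p = 0.000833).

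Aldolase and enolase gave the widest separation of the groups. Aldoc (chromosome 11, 78322968 to 78327781), the aldolase known from brain, had 221, 380 and 443 CPM in mature libraries, against 1.98, 2.99 and 4.87 CPM in embryonic ones. It rose by 6.76 (SE 0.145, adjusted p = 2.12e-17, 108-fold), and every age from P0 to P21 had a higher mean than the one before it. Aldoa, the muscle and widespread form, had 897, 1290 and 2050 CPM in mature libraries, against 185, 379 and 646 CPM in embryonic ones, and rose by 1.92 (SE 0.0855, adjusted p = 5.27e-13). Per kilobase Aldoa stayed above Aldoc at each age, with 832.0 and 137.0 CPM at P28 and 339.0 and 1.29 CPM at E11. Eno2 (chromosome 6, 124760053 to 124769673), the neuron-specific enolase, had 424, 456 and 575 CPM in mature libraries, against 5.02, 9.93 and 23.7 CPM in embryonic ones. It rose by 5.51 (SE 0.0911, adjusted p = 8.22e-19) and was called at E16 vs E14 (1.24, SE 0.159), though not without replicate 1 of E14. Eno1, the widespread enolase, had 1470 to 2730 CPM in mature and 1640 to 3100 CPM in embryonic libraries and was not called (-0.08, SE 0.0838, adjusted p = 0.367). The ratios therefore moved far, by 5.53 for Eno2 to Eno1 and 4.64 for Aldoc to Aldoa, with the exact permutation p of each at 0.000333 and its adjusted p at 0.000833. Eno1 shares sequence with the near-identical Eno1b, which was counted at a mean of 209 CPM at P2 and at 0.582 to 2.87 CPM at the other ages, so the level of Eno1 at P2 (1050 and 1770 CPM) is uncertain.

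**Figure D2:**
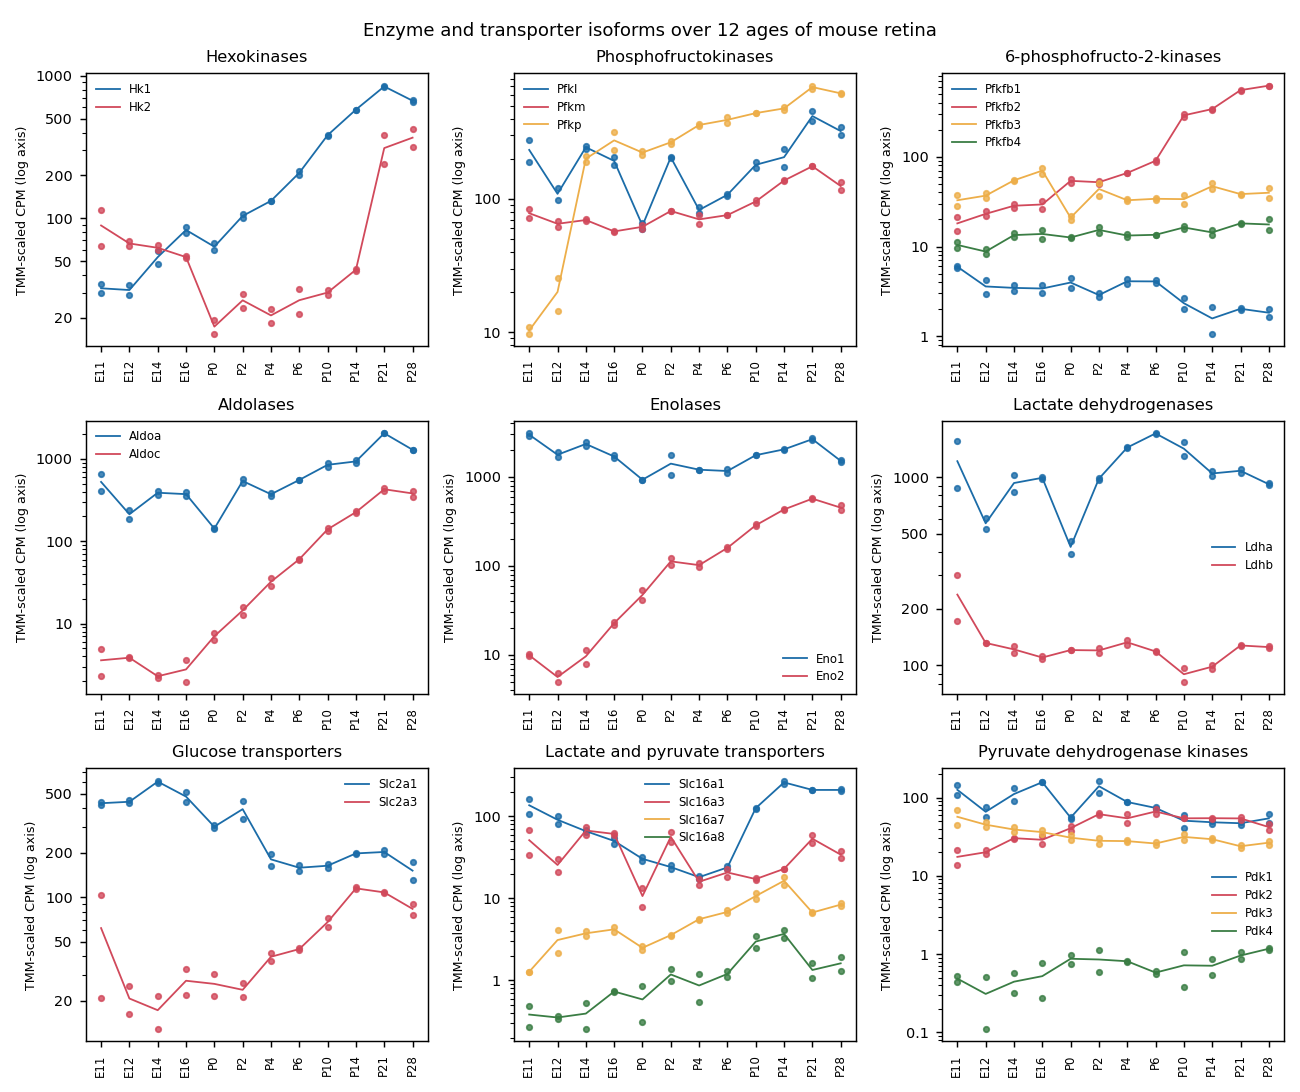
Levels of paralogs in 9 enzyme and transporter groups (vertical axes: TMM-scaled CPM, log scale with a different range in each panel; horizontal axes: age). Points are single libraries, 2 per age, and lines join their means. Aldoc, Eno2, Pfkfb2 and Hk1 climb after birth to 443, 575, 619 and 853 CPM, Hk2 jumps between P14 and P21, and Slc16a1 runs through a low of 17.3 CPM at P4.

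The middle and lower steps of the pathway are run mainly by single widespread enzymes, and these showed little net change. Tpi1 (0.35, SE 0.0718), Gapdh (0.04, SE 0.0787), Pgk1 (-0.06, SE 0.0971), Pgam1 (0.21, SE 0.0834) and Pkm (0.26, SE 0.0695) did not reach a 2-fold change in mature vs embryonic retina. Ldha, the lactate dehydrogenase subunit that favours lactate formation, had 903, 1030 and 1110 CPM in mature and 531, 930 and 1550 CPM in embryonic libraries (0.18, SE 0.0949, adjusted p = 0.096). Ldhb, the subunit that favours pyruvate formation, had 95.7, 125 and 128 CPM in mature and 108, 129 and 302 CPM in embryonic libraries. Its change was -0.3 (SE 0.0875, adjusted p = 0.00465, edgeR quasi-likelihood). Neither reached a 2-fold change, and Ldhb missed only that threshold. Ldha was the higher subunit per kilobase at each age. It had 519.0 CPM at P28 and 686.0 CPM at E11, where Ldhb had 96.1 and 182.0 CPM. By ratio the lead of Ldha was widest at P10, with 803.0 CPM per kilobase and 68.7 for Ldhb, and narrowest at P0, with 241.0 and 92.5. The ratio of Ldhb to Ldha did not pass (-0.48, exact permutation p = 0.0436, adjusted p = 0.0595).

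Lactate and pyruvate cross membranes through the products of the Slc16a genes. Slc16a1 (chromosome 3, 104638668 to 104658462), which encodes MCT1, had 202, 215 and 272 CPM in mature libraries, against 45.5, 74.7 and 165 CPM in embryonic ones, and rose by 1.49 (SE 0.0809, adjusted p = 8.89e-12). Between these ends it went through a low: it had 45.5 and 54.7 CPM at E16, against 108 and 165 CPM at E11 (-1.45, SE 0.154), and 24.7 and 23 CPM at P6 (-1.07 vs E16, SE 0.156). At P10 it had 124 and 128 CPM (2.4 vs P6, SE 0.16, adjusted p = 1.91e-08) and at P14 247 and 272 CPM (1.04 vs P10, SE 0.151, adjusted p = 0.000204), with the last call close to the 2-fold threshold. Slc16a3, which encodes the lactate exporter MCT4, had a median of 34.1 and a highest level of 59.4 CPM in mature libraries, with 59.4 and 74.5 CPM in embryonic ones, and was not called (-0.47, SE 0.152). Slc16a7, which encodes MCT2, known from neurons, had 6.61 to 18.2 CPM in mature and 1.27 to 4.45 CPM in embryonic libraries and rose by 1.79 (SE 0.119). It fell at P21 to 6.61 and 6.84 CPM, against 14.6 and 18.2 CPM at P14 (-1.29, SE 0.215). Slc16a8, which encodes MCT3, known from the pigment epithelium beside the retina, rose by 2.16 (SE 0.252) and peaked at P14 with 4.12 and 3.26 CPM. The 8 pigment epithelium markers summed to 133 and 176 CPM at P10, where Slc16a8 had 2.5 and 3.45 CPM. They summed to 123 and 107 CPM at P14, and to 16.3 and 38.4 CPM at P21, where Slc16a8 had 1.06 and 1.62 CPM. The sums were also 135 and 78.4 CPM at E11, where Slc16a8 had only 0.493 and 0.274 CPM. At E12 they were 60.1 and 92.9 CPM, with Slc16a8 at 0.367 and 0.339 CPM. Single markers differed in direction. The highest level of Pmel was 117 CPM in embryonic and 21.8 CPM in mature libraries, and that of Rgr 1.08 and 22.7 CPM. The part of pigment epithelium cells in the level of Slc16a8 was not tested.

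Bsg encodes basigin, the partner that carries monocarboxylate transporters to the cell surface. Its gene level was 327, 385 and 486 CPM in mature libraries, against 130, 178 and 227 CPM in embryonic ones, and it rose by 1.19 (SE 0.0594, adjusted p = 2.76e-12). Within the gene, the long transcript Bsg-001 went further. It took 22.3% to 37.2% of the gene's counts in mature libraries and 0.486% to 2.3% in embryonic ones, and its change against its gene was 4.77 on the log2 scale (SE 0.392, adjusted p = 3.51e-16, edgeR diffSpliceDGE). By age it took 4.37% to 6.07% at P0, 8.05% to 8.61% at P2, 1.75% to 2.8% at P4, 15.1% to 17.6% at P10, 22.3% to 23.2% at P14 and 33.4% to 37.2% at P21. The share therefore passed 10% only from P10 on and dipped at P4. Bsg-006 took most of the rest, 60.5% to 74.9% in mature and 92.1% to 97.4% in embryonic libraries. The exon that sets Bsg-001 apart is exon 2 of 8 in the GENCODE M21 model, at chr10:79708697-79709044 on the plus strand of GRCm38, and the model of Bsg-006 lacks it. It is coding, with 348 bases or 116 codons, and is known in the mouse to add an immunoglobulin-like domain to a form of basigin found in photoreceptors. The change above is in transcript estimates, and reads on this exon alone were not counted. Its first 300 bases (chr10:79708697-79708996) are:
Bsg-001 exon 2: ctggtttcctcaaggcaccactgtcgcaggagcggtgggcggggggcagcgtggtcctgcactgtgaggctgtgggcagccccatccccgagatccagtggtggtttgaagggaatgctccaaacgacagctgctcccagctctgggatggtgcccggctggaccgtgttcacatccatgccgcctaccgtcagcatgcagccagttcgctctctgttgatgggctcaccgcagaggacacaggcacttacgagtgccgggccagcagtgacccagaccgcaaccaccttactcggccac

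Pkm, the last glycolytic kinase, is spliced with 1 of 2 mutually exclusive exons of 167 bases. The M1 form, constitutively active and known from differentiated tissue, uses the upstream exon, and the M2 form, allosterically regulated and known from proliferating cells and from photoreceptors, uses the downstream one. In the deposited annotation Pkm-202 is the M1 and Pkm-201 the M2 transcript, each 2432 bases long with the same ends. In the GENCODE M21 models the coding exon that each has and the other lacks is exon 9 of 11. These exons lie at chr9:59675029-59675195 for Pkm-202 and at chr9:59675568-59675734 for Pkm-201, on the plus strand of GRCm38, and are the same at 103 of 167 positions (61.7%). They are given from the GENCODE M21 transcripts, with capitals at the positions that differ between them:
Pkm-202 exon 9: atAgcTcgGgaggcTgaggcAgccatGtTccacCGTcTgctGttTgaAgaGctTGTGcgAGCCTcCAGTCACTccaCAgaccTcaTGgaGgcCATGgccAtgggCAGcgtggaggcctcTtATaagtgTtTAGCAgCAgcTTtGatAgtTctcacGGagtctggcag
Pkm-201 exon 9: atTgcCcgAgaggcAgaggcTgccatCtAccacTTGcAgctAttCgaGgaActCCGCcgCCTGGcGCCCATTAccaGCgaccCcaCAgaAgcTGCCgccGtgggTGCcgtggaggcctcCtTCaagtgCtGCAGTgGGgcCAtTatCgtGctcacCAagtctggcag

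The M1 transcript took 25.3% to 36.6% of Pkm counts in mature libraries and 4.9% to 34.9% in embryonic ones. By age it stood at 4.9% and 6.23% at E11, 9.68% and 17.6% at E12, 23.5% and 24.5% at E14, 30.9% and 34.9% at E16, 23.8% and 28.9% at P0, 20.1% and 20.4% at P2, and 30.8% and 31.2% at P4. It was 30.1% and 32.1% at P6, 30.9% and 31.1% at P10, 25.3% and 26% at P14, 36% and 36.6% at P21, and 34.5% and 36.5% at P28. The share thus climbed from E11 to E16, was lower at P0, P2 and P14, and the M2 transcript kept the larger share in each of the 24 libraries. Against its gene Pkm-202 rose by 1.05 in mature vs embryonic retina (SE 0.0962, adjusted p = 1.3e-09, edgeR diffSpliceDGE). With E11 left out its change was 0.55 and without replicate 2 of E12 it was 0.95, both short of 2-fold.

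Across all members, 82 transcripts with at least 10% of their gene's counts at some age were tested. Of these 10 rose and 4 fell against their gene, in 10 of the 35 genes. Of all 56746 transcripts tested, 10% rose and 5.06% fell. The members' counts lie near these shares, and the limit of 10% of a gene's counts was set for the members' transcripts. The risers were Bsg-001, Pkm-202, Eno2-001, Eno2-017, Pfkp-005, Pfkfb3-001, Pfkfb4-002, Slc16a3-005, Gpd2-202 and Gapdh-017, and those that fell were Pdk1-002, Pfkp-011, Gapdh-005 and Eno2-004. Pkm-202, Gapdh-017, Pfkfb4-002, Gpd2-202 and Eno2-017 among the risers, and Pfkp-011 among those that fell, lost the call when at least 1 single library was left out. Pfkp-011, at -1, stood at the 2-fold threshold and also lost its call with E11 left out (-0.98). Gapdh-017 averaged 25.9% of its gene at P21, but 0.0901% at P14 and 0.869% at P28. Eno2-001 took 15.8% to 36.7% of its gene in mature and 0% to 58.2% in embryonic libraries, which overlap. The shares of Pkm-202, Eno2-017, Pfkp-005, Pfkfb4-002, Slc16a3-005, Gpd2-202, Gapdh-017 and Gapdh-005 overlapped between the groups as well. The share of Pdk1-002, a transcript without an open reading frame in the annotation, was 0% to 12.3% in mature and 26.6% to 37.6% in embryonic libraries (-4.12 against its gene, SE 0.281), while the coding Pdk1-001 took 82% to 94.9% and 55.3% to 66.2%. Pfkfb3-001 took 40.1% to 69.1% of its gene in mature and 0% to 23.8% in embryonic libraries (2.2, SE 0.572, adjusted p = 0.00226, edgeR diffSpliceDGE). Other shares moved irregularly between neighbouring ages. Aldoa-001 took 23.8% and 27.8% of Aldoa counts at P0, 62.2% and 63.6% at P2 and 8.77% and 16% at P4. Hk1-201 took 26% and 39.8% of Hk1 counts at P0, 51.4% and 56.2% at P2 and 8.47% and 20.1% at P4. Some shares were alike at P2 and P21 and unlike these at P4. Aldoa-005 averaged 19.9% at P2, 0% at P4 and 16% at P21, and Tpi1-004 averaged 14.5%, 1.93% and 13.9%. Gapdh-005 averaged 0.115%, 29.9% and 0%. Pkm-202 differed from this pattern, with 20.3%, 31% and 36.3%. Such swings limit what a single transcript's share can show in these genes. Their part in the gene-level changes at P2 and P21 was not tested.

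**Figure D3:**
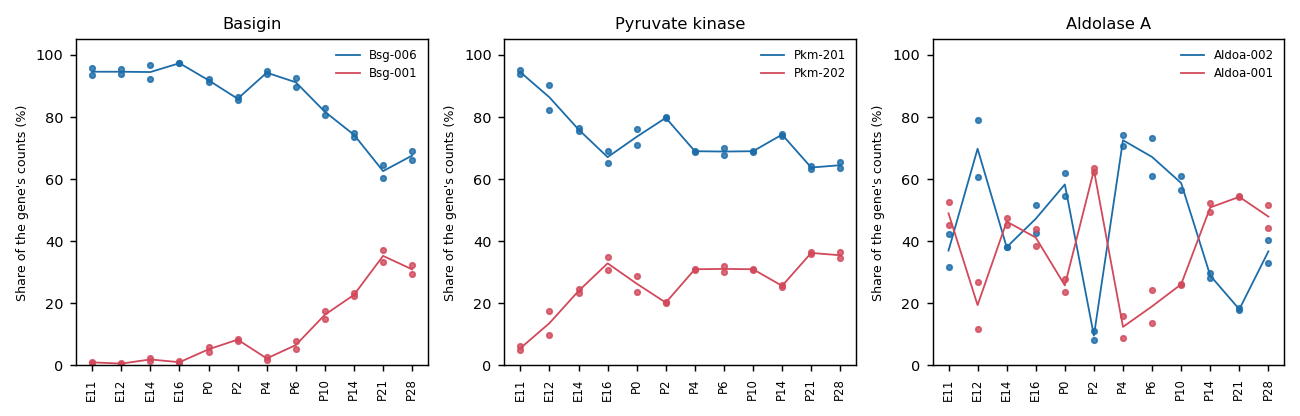
Share of the gene's estimated counts (vertical axis, percent) taken by the 2 main transcripts of Bsg, Pkm and Aldoa at 12 ages; points are libraries and lines join their means. Bsg-001 climbs to between 33.4% and 37.2% at P21, Pkm-202 climbs mainly before birth, and the Aldoa shares swing between 8.77% and 63.6% for Aldoa-001.

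Pyruvate dehydrogenase kinases phosphorylate and silence the pyruvate dehydrogenase complex, whose E1 alpha subunit is encoded by Pdha1. Pdk1, known as the hypoxia-induced form, had 45.2, 48.1 and 60.9 CPM in mature libraries, against 55.8, 119 and 158 CPM in embryonic ones, and fell by 1.14 on the log2 scale (SE 0.12, adjusted p = 9.85e-08), with a small overlap between the groups. Pdk2, a widespread form, had 38.5, 53.1 and 55.9 CPM in mature libraries, against 13.7, 23.2 and 32.4 CPM in embryonic ones, and rose by 1.08 (SE 0.092, adjusted p = 5.32e-09). The ratio of Pdk2 to Pdk1 rose by 2.2 (0.0 ± 0.34 in mature and -2.19 ± 0.6 in embryonic libraries; exact permutation p = 0.000333, adjusted p = 0.000833), and its groups did not overlap. Both calls lie close to the 2-fold threshold: Pdk1 read -0.84 with transcript estimates summed per gene, and Pdk2 0.94 without E11. Pdk3 was at 22.6 to 30.2 CPM in mature and 34 to 69.1 CPM in embryonic libraries (-0.72, SE 0.0926). Pdk4, known from fasting, stayed at 0.547 to 1.21 CPM in mature and 0.11 to 0.773 CPM in embryonic libraries; its rise of 1.09 (SE 0.312, adjusted p = 0.0041) dropped under 2-fold without replicate 1 of E12 (0.91), E14 (1 after rounding) or E16 (0.95) and without replicate 2 of P14 (0.96). Pdha1 had 113 to 136 CPM in mature and 89.6 to 226 CPM in embryonic libraries (-0.02, SE 0.0684, adjusted p = 0.81).

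Glycerol phosphate enzymes move reducing power from the cytosol to the respiratory chain. The mitochondrial Gpd2 had 12.8, 23.3 and 25.6 CPM in mature libraries, against 44.8, 51.9 and 68.4 CPM in embryonic ones, and fell by 1.31 on the log2 scale (SE 0.107, adjusted p = 3.07e-09). Its fall came in the step to P0 (20.3 and 22.9 CPM, against 49.2 and 44.8 CPM at E16; -1.12, SE 0.193). The cytosolic Gpd1 was at 1.55 to 2.78 CPM in mature and 1.66 to 3.06 CPM in embryonic libraries and was not called (-0.2, SE 0.183).

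**Figure D4:**
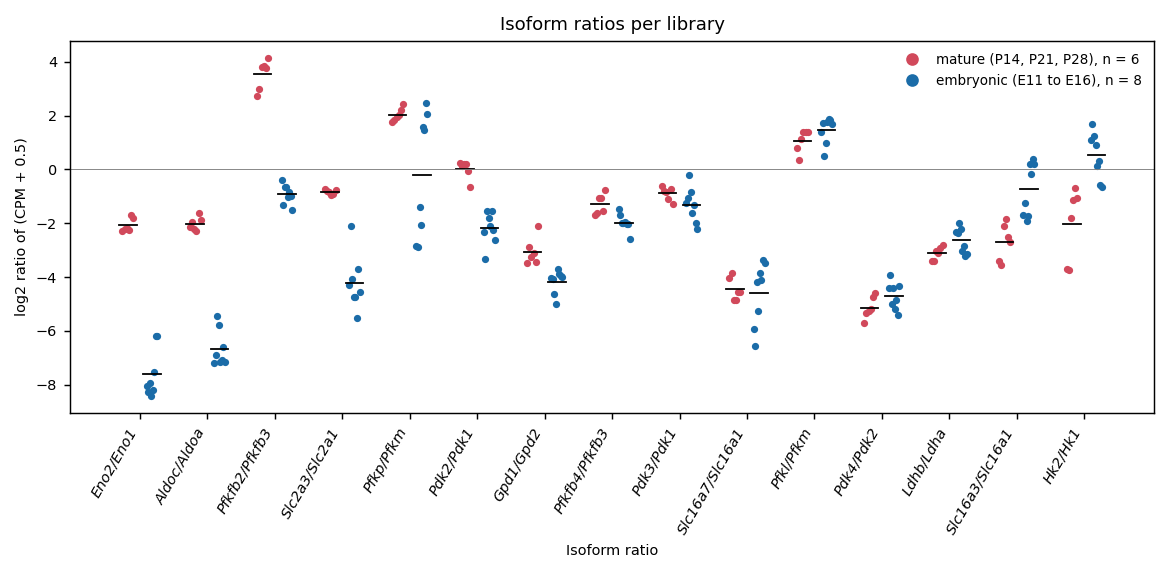
Log2 ratio of (CPM + 0.5) for 15 pairs of paralogs (vertical axis) in each of 6 mature (left, red) and 8 embryonic (right, blue) libraries, with bars at the group means and pairs ordered by their difference. Eno2/Eno1, Aldoc/Aldoa, Pfkfb2/Pfkfb3, Slc2a3/Slc2a1, Pdk2/Pdk1, Gpd1/Gpd2 and Hk2/Hk1 do not overlap between the groups, and the mature Hk2/Hk1 ratios split into P14 near -3.7 and later ages above -2. Ratios of other gene pairs were not computed.

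Among the 15 ratios, 9 had an adjusted p under 0.05 in the exact permutation test over libraries. Ratios of other gene pairs were not computed, so no share over all pairs stands beside this count. In the same contrast 27.9% of all genes rose and 20.8% fell, so other pairs may separate the groups as well. That test counts the 2 libraries of an age as separate units, and its p-values do not cover the choice of ratios, made with earlier results known. The ratio of Slc16a3 to Slc16a1 was lower in mature libraries (-2.68 ± 0.68, against -0.75 ± 0.99 in embryonic ones; difference -1.94, adjusted p = 0.00444), and that of Pfkfb4 to Pfkfb3 was higher by 0.68 (adjusted p = 0.00444). Gpd1 to Gpd2 was higher by 1.11 (adjusted p = 0.000833). The 6 ratios that did not pass were Pfkl/Pfkm, Pfkp/Pfkm, Ldhb/Ldha, Slc16a7/Slc16a1, Pdk3/Pdk1 and Pdk4/Pdk2.

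Around birth a group of members fell and many of them rose again in the next step. At P0 vs E16 11 of 35 members fell and 2 rose, against 3.03% and 4.75% of all genes. At P2 vs P0 11 rose and none fell, against 3.02% and 0.961%. Both steps share the P0 libraries, and values are given side by side. Some transcript shares also swung at P2, as given above, and their part in these rises was not tested. Ldha had 1000 and 982 CPM at E16, 392 and 459 CPM at P0 and 968 and 993 CPM at P2 (-1.22, SE 0.179, for P0 vs E16 and 1.2, SE 0.179, for P2 vs P0). Tpi1 had 467 and 436 CPM at E16, 166 and 175 CPM at P0 and 560 and 479 CPM at P2 (-1.4 and 1.61). Aldoa had 391 and 355 CPM at E16, 141 and 144 CPM at P0 and 564 and 513 CPM at P2 (-1.39 and 1.92). In each of these the P0 libraries lay below the other 4.

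The deepest drop was in Slc16a3, with 59 and 63.1 CPM at E16, 7.94 and 13.4 CPM at P0 and 63.6 and 49 CPM at P2 (-2.52, SE 0.298, adjusted p = 1.85e-05, and 2.4, SE 0.298, adjusted p = 7.85e-05). Pfkl (-1.61 and 1.7), Pfkfb3 (-1.74 and 1.06), Pgk1 (-1.28 and 1.12) and Pdk1 (-1.51 and 1.33) passed in both steps, and Hk2 (-1.62), Pgam1 (-1.29) and Gpd2 (-1.12) fell at P0 without a call at P2. Gpi1 (1.08) was called only in the later step. At P2 Pfkfb3 and Pgk1 lost the call without replicate 1 of P0, Pfkfb3 also without replicate 1 of P2, and Pfkfb3 and Gpi1 with transcript estimates summed per gene, which also removed the P0 call of Gpd2. Leaving out any 1 library left 11 or 12 members lower at P0 and 10 or 11 higher at P2. Aldoc and Eno2 moved the other way at P0, up by 1.33 and 1.06, and were called higher again at P2. The P0 call of Aldoc was lost without replicate 2 of E16, and that of Eno2 without replicate 1 of E16 or of P0 and with transcript estimates summed per gene. The P2 call of Aldoc was lost without replicate 2 of P0 or of P2. Several of these genes are known targets of the hypoxia response. Of 10 further hypoxia response genes 5 fell and 1 rose at P0 vs E16 (median log2 change -0.77, against 0 over all genes), and 2 rose at P2 vs P0 (0.72). The 9 red cell markers summed to 452 and 709 CPM at E16, 7.11 and 7.41 CPM at P0 and 12.6 and 6.38 CPM at P2. The part of either in the drop was not tested.

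**Figure D5:**
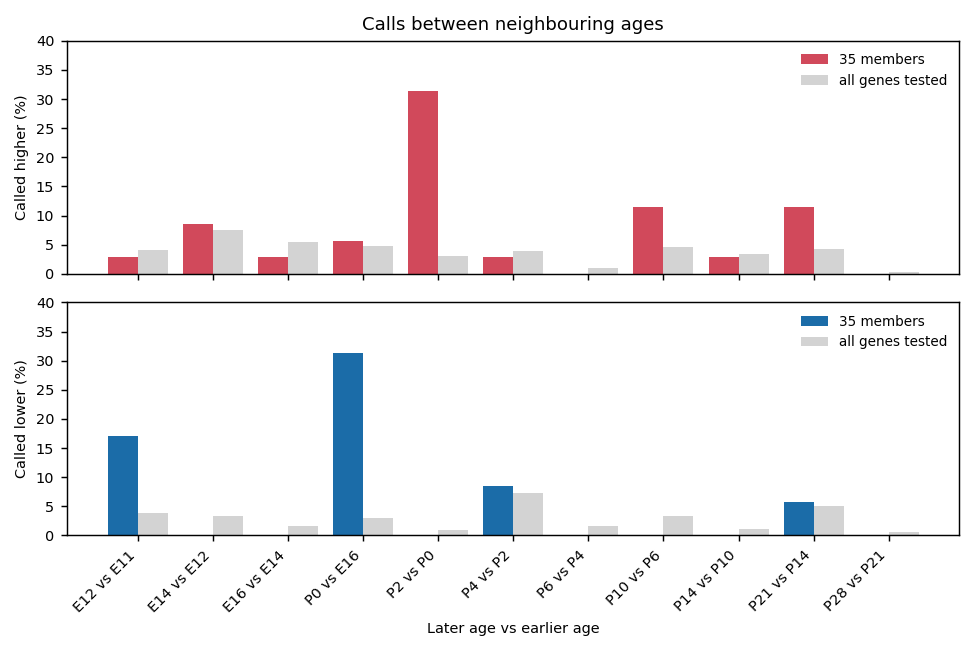
Percent of the 35 members (coloured bars) and of all genes tested (grey bars) called higher (upper panel) or lower (lower panel) at each step between neighbouring ages. The tallest bars are 31.4% of members lower at P0 vs E16 and 31.4% higher at P2 vs P0; the next is 17.1% lower at E12 vs E11.

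The promoters of the members that fell at P0 are shown for Ldha, with the most matches, and for Slc16a3, with the deepest drop. They were searched for ACGTG and GCGTG, the core letters bound by hypoxia-inducible factors, on both strands, in the 250 bases before to 50 after the start of the gene (RefSeq, GRCm38.p6). Matches are in capitals, and CACGTG holds a match on each strand:
Ldha promoter (chr7:46845554-46845853, plus strand): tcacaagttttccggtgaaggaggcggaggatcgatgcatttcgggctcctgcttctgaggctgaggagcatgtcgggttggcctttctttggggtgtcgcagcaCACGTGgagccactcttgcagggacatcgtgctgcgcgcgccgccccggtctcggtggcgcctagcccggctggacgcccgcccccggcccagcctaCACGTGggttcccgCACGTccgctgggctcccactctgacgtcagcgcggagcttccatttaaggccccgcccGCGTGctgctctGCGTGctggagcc
Slc16a3 promoter (chr11:120948817-120949116, plus strand): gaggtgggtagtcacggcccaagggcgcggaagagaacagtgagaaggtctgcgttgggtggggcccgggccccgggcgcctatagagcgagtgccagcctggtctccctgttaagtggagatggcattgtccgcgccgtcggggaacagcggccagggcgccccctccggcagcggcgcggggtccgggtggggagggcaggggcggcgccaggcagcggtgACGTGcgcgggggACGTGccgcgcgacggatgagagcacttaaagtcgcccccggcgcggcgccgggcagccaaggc

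A match was present in 8 of 11 promoters of members that fell at P0 (72.7%), in 14 of the 20 other members with a promoter in the table (70.0%), and in 43.8% of 27025 promoters overall. Members lower at P0 and the other members thus held these letters about equally often, and a match is a description of the letters, not of binding.

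Other steps moved fewer members. At E12 vs E11 6 fell and 1 rose (3.92% and 4.08% of all genes), but none fell without replicate 2 of E11, 10 did without replicate 1 of E11, and 2 did without replicate 1 of E12 or under scaling by library size alone. The riser, Slc16a7, lost its call without replicate 1 of E12. At E14 vs E12 Pfkl, Pfkp and Slc16a3 rose and none fell (7.52% and 3.38%), and at E16 vs E14 Eno2 rose and none fell (5.47% and 1.67%), a call lost without replicate 1 of E14. With transcript estimates summed per gene Pfkl lost its rise at E14 vs E12. At P4 vs P2 Pfkl, Slc2a1 and Slc16a3 fell and Aldoc rose (7.28% and 3.97%). Aldoc lost that call without replicate 2 of P4 and with transcript estimates summed per gene. At P10 vs P6 Pfkfb2, Aldoc, Slc16a1 and Slc16a8 rose and none fell (4.59% and 3.28%), and at P14 vs P10 Slc16a1 rose and none fell (3.45% and 1.08%). The call of Slc16a8 was lost without any 1 of the 4 libraries of P6 and P10, and that of Slc16a1 at P14 without replicate 2 of P14 and under scaling by library size alone. At P21 vs P14 Hk2, Pfkl, Aldoa and Slc16a3 rose and Slc16a7 and Slc16a8 fell (4.31% and 5.07%); with transcript estimates summed per gene only Hk2 kept its rise. Pfkl also lost its call without replicate 2 of P14 or of P21 and under scaling by library size alone, and Slc16a8 without replicate 1 of P14 or of P21. At P6 vs P4 and P28 vs P21 no member was called by edgeR or DESeq2, with 1.08% of all genes called higher and 1.54% lower at P6 vs P4 and 0.339% and 0.549% at P28 vs P21. Without the 2-fold threshold, 5 members were higher at P6 vs P4 and 7 lower at P28 vs P21 (edgeR adjusted p under 0.05). At an unadjusted edgeR p under 0.05, 8 were higher at P6 vs P4 and 15 lower at P28 vs P21. None went the other way at either cut, and the shares of all genes at these cuts were not counted.

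The 3 longer windows place these changes. At E16 vs E11 5 members rose (Hk1, Pfkp, Pfkfb3, Eno2 and Slc16a7) and 4 fell (Ldhb, Slc2a3, Slc16a1 and Pdha1), against 13.6% and 9.11% of all genes. Without replicate 2 of E11 only Slc16a1 stayed lower, and Slc2a3 read 0.39, where all libraries gave -1.18. At P6 vs E16 5 rose (Hk1, Pfkfb2, Aldoc, Eno2 and Pdk2) and 6 fell (Hk2, Pfkfb3, Slc2a1, Slc16a1, Slc16a3 and Pdk1), against 13.2% and 11.7%; without replicate 2 of E16 3 fell. At P28 vs P6 8 rose (Hk1, Hk2, Pfkl, Pfkfb2, Aldoa, Aldoc, Eno2 and Slc16a1) and Pfkfb1 fell, against 14% and 10.5%, and without replicate 1 of P28 Gpd2 fell as well. Slc16a1, with 218 and 202 CPM at P28 against 24.7 and 23 CPM at P6, changed by 3.14 (SE 0.164), and Hk2 by 3.79 (SE 0.281).

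Genes around the pathway were counted from lists in the same mature vs embryonic test, beside 27.9% higher, 20.8% lower and a median of 0.1 over all genes. The shares of the hypoxia list (3 and 2 of 10) and the glycogen list (3 and 3 of 11) lie near those of all genes. Of 24 other paralogs tested 10 rose and 5 fell (median 0.73). Slc16a6, another monocarboxylate transporter, had 97.7 to 188 CPM in mature and 7.92 to 13.4 CPM in embryonic libraries (3.77, SE 0.127), while Hk3 fell by 3 on the log2 scale (SE 0.296). Among 12 genes of the malate-aspartate shuttle and malic enzymes 6 rose and 1 fell (median 1.25): malic enzyme Me1 (3.92, SE 0.104) and the glutamate carrier Slc25a22 (2.86, SE 0.11) rose, and the aspartate-glutamate carrier Slc25a13 fell to 1.21 to 4.96 CPM in mature libraries, against 23.6 to 72.2 CPM in embryonic ones. None of 9 pentose phosphate genes rose and 4 fell (median -0.6), among them Pgls (-1.5, SE 0.0922), H6pd (-1.14) and Pgd (-1.1). Of 10 genes from pyruvate to acetyl-CoA only Mpc1, a subunit of the mitochondrial pyruvate carrier, was called (1.53, SE 0.0659). In the glycogen list of 11, 3 rose and 3 fell, with the phosphorylases Pygm (3.9) and Pygl (1.74) up and the synthase Gys1 (-1.65) down. The hypoxia list of 10 had 3 higher and 2 lower, with Ndrg1 (3.66) and Ankrd37 (1.85) up and Car9 (-2.42) down. Of 9 transcriptional regulators tested 4 rose and 4 fell: Esrrb, an orphan nuclear receptor known from rods, had 254 to 491 CPM in mature and 0.427 to 4.24 CPM in embryonic libraries (8.57, SE 0.109), Epas1 rose by 4.96 (SE 0.134), and Myc fell by 4.47 on the log2 scale (SE 0.246).

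Counting limits remain for several widespread enzymes. Pgk1-rs7, a near-identical copy of Pgk1, was counted at 23.7 CPM at P0, 2.79 CPM at P2 and 139 CPM at P4, and Pgam1-ps2 at 24.3 CPM at P2, 29.6 CPM at P21, 2.31 CPM at P28 and 0 at the other ages, so reads of Pgk1 and Pgam1 may be split. Deposited gene values were divided by the sum of the gene's deposited transcript values in each library. The results ran from 0.609 to 1.27 for Aldoc, from 0.681 to 1.51 for Hk2 and from 0.962 to 1.01 for Pgk1. They reached the highest value of any member in Gpd1 (0.772 to 1.97), and ran from 0.847 to 1.73 for Gpd2.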

How the data were processed

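Retinas of 12 ages were profiled by RNA sequencing, with 2 libraries per age. The authors deposited estimated counts per Ensembl gene and per transcript, and kallisto 0.42.4, edgeR 3.13.9 and GRCm38.p5 are named, with no roles, in the submitters' processing notes. The step from transcript to gene values is not described there. Members, lists and ratios were chosen with earlier results of these data known.

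The estimated counts were rounded. The edgeR 4.0.16 quasi-likelihood test (R 4.3.3) was used with 1 coefficient per age over all 24 libraries, TMM scaling and filterByExpr at a minimum count of 10. Calls need a Benjamini-Hochberg adjusted p under 0.05 over all genes and a 2-fold change. SEs were derived from the F statistic as the size of the change over its root. The mature contrast is the mean of 3 ages minus that of 4. Paralog ratios used CPM with 0.5 added, and exact permutation over 6 and 8 libraries. Transcripts were tested with diffSpliceDGE, which sets a transcript against its whole gene, not against the gene's other transcripts as first planned. All 35 members are described, for each list the 3 called genes with the largest change, and transcripts with 10% of their gene at any age. Scripts were tested on simulated data. Alternatives were limma 3.58.1, RLE factors, library size alone, other filters, no fold threshold, DESeq2 1.42.0, a replicate block, leaving out each library or E11, the mature group without P14, the compared ages alone, another or no ratio prior, and, chosen after seeing the data, summed transcript estimates, added near-identical copies and steps with no fold threshold. Sequences are from GENCODE M21 and RefSeq. The deposited CPM table and the authors' table of comparisons were not used.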

Additional observations from a re-analysis of the deposited data

How the results depend on the processing

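Member counts stayed within 1.5 times under most alternatives, with these exceptions. Members lower at E16 vs E11 numbered 1 with library size alone and 1 to 6 with single libraries left out, where all libraries gave 4. Single libraries left out gave 3 to 6 lower at P6 vs E16 and 1 or 2 lower at P28 vs P6, and summed transcript estimates gave 0 lower at P28 vs P6. With no fold threshold 7 members were lower in mature vs embryonic retina, and 8 were higher and 13 lower at E16 vs E11. At this cut 12 were higher and 12 lower at P6 vs E16, and 17 higher and 4 lower at P28 vs P6. The steps held 88 higher and 58 lower calls. The shares of all genes with no fold threshold were not counted, so these counts have nothing to stand beside. Limma's diffSplice, which sets a transcript against the others of its gene, called 17 transcripts lower, where edgeR called 4. Leaving out single libraries gave 14 or 15 higher and 4 lower in mature vs embryonic retina, 4 or 5 higher at E16 vs E11, 26 to 31 higher and 16 to 26 lower step calls, and 7 to 10 transcripts higher and 3 to 6 lower.

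Of the ratios, Pfkp/Pfkm passed with a prior of 2 CPM (2.18, adjusted p = 0.0436) and with summed transcript estimates (2.27), Pdk4/Pdk2 with a prior of 2 CPM (-0.76) and Pfkl/Pfkm with summed estimates (-0.76), while Pfkfb4/Pfkfb3 did not pass with summed estimates (0.35, adjusted p = 0.151) (exact permutation tests). With single libraries left out, Pfkp/Pfkm ran from 1.85 to 2.62, Pfkl/Pfkm from -0.54 to -0.26, Pdk3/Pdk1 from 0.3 to 0.58 and Ldhb/Ldha from -0.56 to -0.39. Slc2a3 at E16 vs E11 changed sign without E11 replicate 2 (0.39) and read -1.91 without E11 replicate 1. With the replicate block 15 members rose and 4 fell in mature vs embryonic retina, and at P6 vs E16 5 fell; the block removed the calls of Slc2a3 at E16 vs E11 (-1.16), Hk2 at P6 vs E16 (-1), Pfkp-011 (-1) and Slc16a3 at E12 vs E11. Over 66 pairs of ages the correlation of same-numbered libraries' deviations had a median of 0.0203. It ran from -0.342 to 0.414, and 16 were over 0.1. These values show no pairing shared by all ages, but cannot tell whether libraries of some ages are paired. The cause of these changes was not tested.

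Of 19 members called in mature vs embryonic retina, 15 kept the call under every alternative run, and Pdk1, Pdk2, Pdk4 and Pfkfb1 lost it under at least 1. At E16 vs E11 5 of 9 calls were kept, with Ldhb, Pdha1, Pfkfb3 and Slc2a3 lost. At P6 vs E16 7 of 11 were kept, with Hk2, Pdk1, Pfkfb3 and Slc16a1 lost. There Hk2 read -0.98 with DESeq2 and with RLE factors. At P28 vs P6 8 of 9 were kept, with Pfkfb1 lost. Low levels limit Pdk4, Slc16a8, Pfkfb1 and Gpd1, which stood under 7 CPM in every library.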
